A study of Mus musculus with 4 samples.

Results

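The 33 genes described here encode the enzymes of cholesterol synthesis, the proteins that control them through the sterol regulatory element-binding proteins (SREBPs), and the enzymes that make, elongate and desaturate fatty acids. They were named by gene symbol, in a list drawn up with earlier results of these data known. All 33 were found among the 19737 genes of the deposited count matrix. The sterol arm held 18 genes, the SREBP control arm 6 and the fatty acid arm 9. Single-cell RNA-seq of 74758 brain microglia from 20 mice was used, with 5 groups of 4. WT;TfRmu/hu mice, written below as WT, had received either ATV:ISO or ATV:4D9. AppSAA;TfRmu/hu mice, written below as AppSAA, had received 1 of 3 antibodies, namely ATV:ISO, plain 4D9 or ATV:4D9. Every mouse, controls included, carried TfRmu/hu, a homozygous knock-in that puts the human apical domain into the mouse transferrin receptor, on a C57BL/6J background. AppSAA mice were homozygous for an App knock-in with familial Alzheimer's disease mutations, expressed from the App locus rather than from a transgene. All mice received a single intravenous dose of 10 mg/kg and were sampled 24 h later, so the values are from 1 time point. 4D9 is an antibody to mouse TREM2, a lipid-sensing receptor of microglia. ATV:4D9 carries the same binding arms with an antibody transport vehicle (ATV), an Fc region made to bind the human apical domain so that the antibody enters the brain, and ATV:ISO is the matched control that does not bind TREM2. The deposited name of the control antibody is ATV:DNP02. Taking it for ATV:ISO is an inference, since no label makes the link. Of the 20 mice, 1 WT mouse given ATV:ISO was recorded as female and the others as male. The AppSAA mice were 8 months old, and for WT mice only a span of 2 to 8 months over the whole study is given.

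Cells make cholesterol from acetyl-CoA through mevalonate, isoprenoids, squalene and lanosterol. SREBP2, encoded by Srebf2, is held in the endoplasmic reticulum by SCAP and the INSIG proteins when sterols are plentiful, and is carried to the Golgi, cleaved and sent to the nucleus when sterols are scarce, where it raises transcription of the genes of sterol synthesis. SREBP1, encoded by Srebf1, works in the same way with more weight on fatty acid synthesis. In the brain most new cholesterol comes from glia, since plasma lipoproteins do not cross the blood-brain barrier, and microglia that engulf myelin or plaque material take up large amounts of lipid.

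Counts were unique molecular identifiers (UMIs), 1 for each captured RNA molecule, and were summed over all cells of a mouse. The sums held 2193 to 6126 cells and 17150296 to 102446549 UMIs per mouse. Levels are given in CPM, a gene's UMIs scaled to a common total of UMIs per mouse, which allows a gene to be compared between mice. Values of single mice are listed in the order of pools 1 to 4. Gene length was not used, and how well the RNA of each gene was captured was not measured. Levels of different genes are therefore not ranked against each other, although summed levels add the CPM of different genes. A summed level cannot tell a change in the share of expressing cells from a change in the level per cell. The median UMIs per cell of a mouse was 6859 to 8173.5 in WT mice given ATV:ISO and 13479 to 17290 in WT mice given ATV:4D9. In AppSAA mice it was 8444.5 to 9883.5 with ATV:ISO, 8293 to 11552.5 with 4D9 and 13560 to 16475 with ATV:4D9, so depth per cell moved with ATV:4D9 and its part in the results was not tested. All 12 microglial markers were detected, with a summed level of 34267 to 48487 CPM per mouse. Oligodendrocyte markers (8 of 8 detected) summed to 115 ± 6.84 CPM in WT mice given ATV:ISO and to 83.8 ± 4.30 with ATV:4D9, and in AppSAA mice to 96.1 ± 6.52 under ATV:ISO and 91.5 ± 9.67 under ATV:4D9 (± SD over 4 mice). Astrocyte markers (7 of 7 detected) summed to 150.0 ± 12.3, 70.9 ± 6.53, 98.7 ± 13.6 and 83.6 ± 14.8 CPM in these 4 groups. Endothelial markers (6 of 6 detected) summed to 23.2 ± 3.13, 11.5 ± 1.62, 44.0 ± 6.64 and 19.96 ± 5.38 CPM, so that they were highest where Scd2 and Acaca were highest. These sums rested on a few genes. Slc1a3 gave 96.8 CPM of the astrocyte sum as a mean over 20 mice, while Aqp4, Gja1 and Gfap, which define astrocytes, gave 0.205 to 0.34 CPM each. In the endothelial sum Flt1 gave 18.2 and Pecam1 9.87 CPM and Cldn5 0.168 CPM, and in the oligodendrocyte sum Cnp gave 44.7 CPM and Mog 0.176 CPM. The part of other cells in the results was not tested. Group means were 0.609 to 1.55 CPM for neuron, 19.8 to 27.8 for border macrophage, 17.8 to 22.5 for monocyte and neutrophil, and 0.258 to 0.492 for lymphocyte markers. Each of 4 pools, in which cells of several mice were tagged and run together, held 1 mouse of every group. Within a pool no cell barcode was shared by mice, and 543 of 74212 barcode sequences (0.732%) appeared in more than 1 pool.

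The promoters of 4 members are shown because they stand for the 3 arms and for genes on which the comparisons below turn. A 300-base RefSeq promoter window (GRCm38.p6, 250 bases before to 50 after the start of transcription) was on hand for 26 members. Windows of Fdps, Fdft1, Sqle, Stard4, Scd1, Scd2 and Fads1 were not used here. Only the 250 bases before the start are printed, 5′ to 3′ on the strand of the gene. Capitals mark matches, on either strand, to the sterol regulatory element TCACNCCAC and to the NF-Y box CCAAT, which reads ATTGG on the other strand.
Hmgcs1 (chr13:119690101-119690350, plus strand): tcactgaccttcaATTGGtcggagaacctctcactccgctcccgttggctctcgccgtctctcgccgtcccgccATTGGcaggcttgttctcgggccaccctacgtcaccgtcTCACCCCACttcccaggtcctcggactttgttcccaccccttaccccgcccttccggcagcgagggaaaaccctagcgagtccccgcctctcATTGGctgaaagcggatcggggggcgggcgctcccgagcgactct
Idi1 (chr13:8885356-8885605, plus strand): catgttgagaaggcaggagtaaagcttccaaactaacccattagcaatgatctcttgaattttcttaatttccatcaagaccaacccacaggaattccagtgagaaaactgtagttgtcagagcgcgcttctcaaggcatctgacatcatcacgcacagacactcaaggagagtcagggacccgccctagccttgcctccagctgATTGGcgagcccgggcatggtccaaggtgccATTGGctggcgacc
Insig1 (chr5:28071162-28071411, plus strand): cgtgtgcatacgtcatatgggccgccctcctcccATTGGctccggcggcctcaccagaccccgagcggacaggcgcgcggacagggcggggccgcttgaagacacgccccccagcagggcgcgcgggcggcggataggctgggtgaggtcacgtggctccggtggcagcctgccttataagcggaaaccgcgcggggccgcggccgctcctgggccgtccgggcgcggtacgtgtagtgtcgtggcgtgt
Fasn (chr11:120824548-120824797, minus strand): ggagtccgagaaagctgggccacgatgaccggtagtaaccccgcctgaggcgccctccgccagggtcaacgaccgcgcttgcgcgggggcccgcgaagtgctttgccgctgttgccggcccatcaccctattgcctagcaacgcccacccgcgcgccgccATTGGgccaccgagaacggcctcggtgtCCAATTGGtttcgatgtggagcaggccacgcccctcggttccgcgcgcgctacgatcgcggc

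The Hmgcs1 window held the only match of the 26 members to TCACNCCAC, starting 137 bases before the start of transcription on the plus strand. Among 13946 genes with a window, 1.48% held this word. CCAAT was found in 21 of the 26 members (80.8%), against 41.9% of all genes with a window, and in 14 of 15 sterol genes, 4 of 5 SREBP control genes and 3 of 6 fatty acid genes. In Fasn a match on the plus strand and a match on the minus strand share bases. The Sp1 box GGGCGG was present in 21 of 26 members against 60.1% of all genes with a window, and the E-box CACGTG in 6 of 26 (23.1%) against 10.6%. Both strands were searched over all 300 bases. A gene with more than 1 window was counted once, if any of its windows held the word. These are letter matches in the windows, counted without a test.

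In AppSAA mice given ATV:ISO, 22 of the 33 genes were higher than in WT mice given ATV:ISO and 1 was lower, a comparison that asks what the knock-in changed in microglia without a TREM2 antibody. Of all 14058 genes tested, 28.2% were called in this comparison, 14.4% as higher and 13.7% as lower. The rise ran through the sterol arm (14 of 18 genes), the SREBP control arm (4 of 6) and the fatty acid arm (4 of 9, with 1 lower). The median log2 fold change of the 33 genes was 0.78, against -0.06 over all genes. Calls are edgeR quasi-likelihood tests with Benjamini-Hochberg adjustment over all genes at an adjusted p under 0.05. Fold changes include the TMM scaling factors of that fit. These placed log2 changes 0.18 above ratios of CPM in this comparison, 0.12 above for ATV:4D9 in WT mice, 0.14 above for genotype under ATV:4D9 and 0.01 to 0.07 above in the other comparisons of 2 groups, which turned the sign of some small differences. Without the factors, an alternative added once values were known, 19 members were higher and 2 lower, with 10.8% of all genes called higher and 37.5% lower. Mvk, Lss and Nsdhl were then not called, Insig2 was called lower (log2 change -0.36 ± 0.06, edgeR adjusted p = 0.000122), and the median was 0.60 over the members and -0.24 over all genes. For 19 genes all 4 AppSAA mice lay above all 4 WT mice, which held for 9.5% of all genes, and for 1 gene, Insig2, all lay below (30.6% of all genes).

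Sqle, which encodes squalene epoxidase and so commits squalene to the sterol ring, was at 1.05, 1.66, 0.921 and 0.954 CPM in the WT mice of pools 1 to 4 and at 5.19, 7.08, 5.90 and 6.01 CPM in the AppSAA mice. Every AppSAA mouse was above every WT mouse, and Sqle rose by 2.59 ± 0.18 on the log2 scale (± standard error, adjusted p = 1.15e-09). Cyp51, the lanosterol demethylase, was at 11.4, 15.5, 13.3 and 10.0 CPM in WT and 29.3, 35.4, 27.7 and 26.3 CPM in AppSAA mice, a log2 change of 1.43 ± 0.16 (adjusted p = 8.37e-07). Idi1, which isomerizes isopentenyl diphosphate, was at 6.36, 7.13, 6.14 and 6.11 CPM in WT and 13.3, 18.6, 14.5 and 14.3 CPM in AppSAA mice (log2 change 1.43 ± 0.14, adjusted p = 2.05e-07). The groups did not overlap for either gene. Hmgcs1, the cytosolic HMG-CoA synthase at the entry of the pathway, was at 25.0, 30.0, 24.9 and 25.9 CPM in WT mice and at 35.3, 43.9, 40.4 and 40.4 CPM in AppSAA mice. All 4 AppSAA mice were higher, by 0.78 ± 0.08 on the log2 scale (adjusted p = 4.32e-07).

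The other called sterol genes followed in the same direction. Fdps, which makes farnesyl diphosphate, rose by 1.13 ± 0.15, and the late enzymes Hsd17b7, Sc5d and Dhcr7 rose by 1.00, 0.99 and 0.84. Rises were called as well for the mevalonate pathway kinases Pmvk (0.82) and Mvk (0.42), the squalene synthase Fdft1 (0.51), the lanosterol synthase Lss (0.42) and the demethylation enzymes Msmo1 (0.84) and Nsdhl (0.29). Acat2, the cytosolic thiolase that joins the first acetyl-CoA units, was at 6.46 to 8.88 CPM in WT and 5.83 to 7.13 CPM in AppSAA mice, and its log2 difference of -0.04 ± 0.12 was not called (adjusted p = 0.849). The sterol isomerase Ebp (0.03, or -0.16 without scaling factors), the mevalonate diphosphate decarboxylase Mvd (0.33) and the sterol reductase Tm7sf2 (0.32) were not called either.

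**Figure D1:**
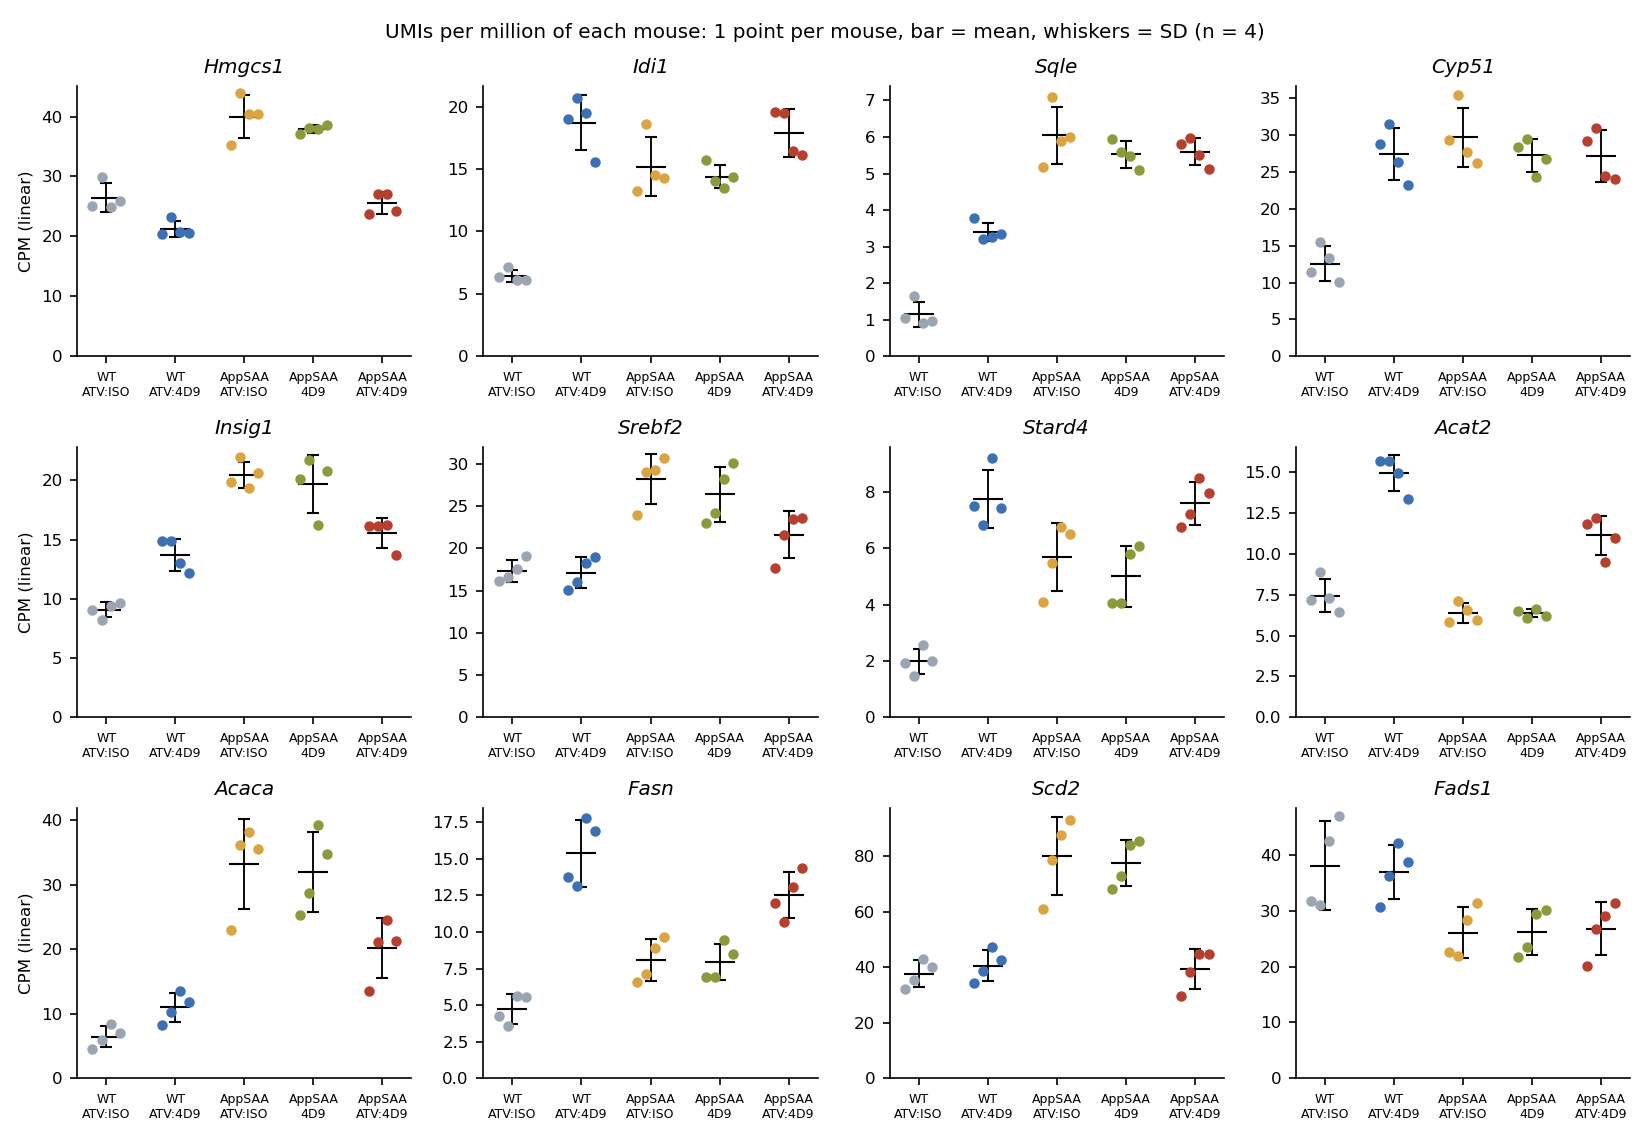
Levels of 12 sterol, SREBP control and fatty acid genes in CPM (y axis, linear, from 0) in every mouse, by group (x axis, 4 mice a group); points are mice, bars are group means and whiskers are SDs. Sqle, Idi1 and Cyp51 were lowest in the 4 WT mice given ATV:ISO, while Hmgcs1 and Scd2 were highest in the AppSAA mice given ATV:ISO or 4D9.

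In the control arm, Srebf2 was at 16.1, 16.6, 17.5 and 19.1 CPM in WT mice and 23.9, 29.0, 29.3 and 30.7 CPM in AppSAA mice given ATV:ISO, with no overlap (log2 change 0.89 ± 0.08, adjusted p = 1.00e-07). Insig1, an SREBP target whose protein retains SCAP, was at 9.04, 8.25, 9.41 and 9.64 CPM in WT and 19.9, 22.0, 19.4 and 20.6 CPM in AppSAA mice (log2 change 1.36 ± 0.12, adjusted p = 4.58e-08). Stard4, a soluble sterol carrier, was at 1.92, 1.46, 2.56 and 2.01 CPM in WT and 4.08, 5.46, 6.74 and 6.49 CPM in AppSAA mice (log2 change 1.71 ± 0.17, adjusted p = 1.43e-07). For these 3 genes every AppSAA mouse exceeded every WT mouse. Srebf1 rose by 0.53 ± 0.06 (adjusted p = 1.24e-06). Scap (-0.11 ± 0.09) and Insig2 (-0.17 ± 0.07) did not pass the threshold.

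The fatty acid arm was divided. Acaca, the acetyl-CoA carboxylase that makes malonyl-CoA, was at 4.55, 5.86, 8.44 and 6.96 CPM in WT and at 23.0, 36.1, 38.2 and 35.5 CPM in AppSAA mice, a log2 change of 2.54 ± 0.19 (adjusted p = 2.50e-09). Scd2, a stearoyl-CoA desaturase, was at 32.2, 35.5, 43.1 and 40.0 CPM in WT and 60.9, 78.6, 87.7 and 93.1 CPM in AppSAA mice (log2 change 1.27 ± 0.11, adjusted p = 3.30e-08). Neither gene's groups overlapped. Fasn, the synthase that builds palmitate, was at 4.26, 3.56, 5.63 and 5.55 CPM in WT and 6.61, 7.15, 8.89 and 9.69 CPM in AppSAA mice (log2 change 0.95 ± 0.14, adjusted p = 3.26e-05), again without overlap. Fads2, the delta-6 desaturase, was low in all mice, at 0.0583, 0.0976, 0.102 and 0.247 CPM in WT and 0.833, 1.07, 1.13 and 1.61 CPM in AppSAA mice (log2 change 3.25 ± 0.33, adjusted p = 2.22e-07). The WT value rests on 1, 2, 2 and 7 UMIs, 12 in all, so the size of this fold is uncertain. Fads1, the delta-5 desaturase, was the member called lower (log2 change -0.36 ± 0.12, adjusted p = 0.0324), and its groups overlapped. Acly (0.19), which makes acetyl-CoA from citrate, Elovl5 (0.21), Elovl6 (-0.29) and Scd1 (0.60) were not called. Scd1 held 143 UMIs in all 20 mice and Elovl6 held 557, so small changes of these genes could not be seen at this depth. With the pool as a block, which pairs mice run together, 28 members were called (51% of all genes), since Mvd (adjusted p = 0.0161), Tm7sf2 (adjusted p = 0.0313), Acly (adjusted p = 0.006) and Elovl5 (adjusted p = 0.00298) were then called higher and Insig2 (adjusted p = 0.00149) lower by edgeR. The calls of Acly and Elovl5 come with the scaling factors, since their CPM were level, at 66.3 ± 11.4 in WT and 66.3 ± 9.74 in AppSAA mice for Acly and at 15.3 ± 2.69 and 15.5 ± 2.21 for Elovl5. Scd1 and Scd2 are similar in sequence, and reads that match both could have been lost or split.

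In WT mice, ATV:4D9 raised 20 of the 33 genes over ATV:ISO and lowered 3. This comparison asks what the TREM2 antibody changed in microglia of mice without the App knock-in, and it shares the WT mice given ATV:ISO with the comparison of genotypes. It changed much of the transcriptome, with 63.3% of all genes called, 30.8% as higher and 32.5% as lower. The members called were 12 higher and 1 lower in the sterol arm, 3 higher and 2 lower in the control arm, and 5 higher in the fatty acid arm. Their median log2 fold change was 0.49 against -0.05 over all genes. For 15 genes all 4 mice given ATV:4D9 were above all 4 given ATV:ISO (24.3% of all genes), and for 3 genes all were below (32.8%). Without scaling factors 17 members were higher and 3 lower (26.5% of all genes higher and 38.3% lower), and Mvk, Fdft1 and Elovl6 were not called.

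Sqle reached 3.78, 3.20, 3.28 and 3.35 CPM with ATV:4D9, above every WT mouse given ATV:ISO, a log2 change of 1.70 ± 0.18 (adjusted p = 9.53e-08). Idi1 reached 19.0, 20.7, 19.5 and 15.6 CPM (log2 change 1.66 ± 0.14, adjusted p = 3.86e-09) and Cyp51 28.8, 31.5, 26.4 and 23.2 CPM (log2 change 1.25 ± 0.16, adjusted p = 8.85e-07). Acat2 was at 7.17, 8.88, 7.27 and 6.46 CPM with ATV:ISO and 15.7, 15.7, 14.9 and 13.3 CPM with ATV:4D9, so that the groups did not overlap (log2 change 1.12 ± 0.12, adjusted p = 1.21e-07). Rises were also called for Hsd17b7 (1.07), Fdps (0.84), Dhcr7 (0.83), Sc5d (0.58), Pmvk (0.55), Ebp (0.40), Fdft1 (0.29) and Mvk (0.27).

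Hmgcs1 went the other way. It was at 20.4, 23.2, 20.7 and 20.6 CPM with ATV:4D9, below all 4 mice given ATV:ISO, and the log2 change was -0.20 ± 0.08 (adjusted p = 0.0379). This small fall lost its call under DESeq2 and several other settings. Per 1000 cells Hmgcs1 was higher, not lower, with ATV:4D9, at 228 ± 24.8 UMIs with ATV:ISO and 355 ± 27.0 with ATV:4D9, as were 90.4% of the 13556 genes with a mean of at least 10 UMIs per mouse. Msmo1 (log2 change 0.05 ± 0.11, or -0.06 without scaling factors) and Nsdhl (-0.04 ± 0.08), the enzymes that remove the methyl groups at carbon 4, were not called.

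Among the control genes Stard4 rose to 7.50, 6.80, 9.20 and 7.41 CPM (log2 change 2.08 ± 0.16, adjusted p = 1.20e-09), and every mouse lay above the ATV:ISO group. Insig1 was at 14.8, 14.9, 12.99 and 12.2 CPM (log2 change 0.71 ± 0.12, adjusted p = 3.41e-05) and Srebf1 rose by 0.49 ± 0.06, both without overlap. Srebf2 was at 15.1, 16.1, 18.2 and 19.0 CPM, overlapping the ATV:ISO mice, and its log2 difference of 0.09 ± 0.08 (-0.02 without scaling factors) was not called (adjusted p = 0.339). Scap (log2 change -0.31 ± 0.09, adjusted p = 0.00408) and Insig2 (-0.21 ± 0.07, adjusted p = 0.0112) were lower in CPM. Per 1000 cells both turned, with Scap at 190.2 ± 38.9 UMIs under ATV:ISO and 275 ± 49.1 under ATV:4D9, and Insig2 at 476 ± 53.4 and 734 ± 44.7. All 20 members called higher in CPM were higher per 1000 cells too.

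In the fatty acid arm of WT mice Fasn was at 13.7, 13.2, 17.8 and 16.9 CPM with ATV:4D9, each above every mouse given ATV:ISO (log2 change 1.81 ± 0.14, adjusted p = 8.63e-10). Acaca was at 8.30, 10.3, 13.6 and 11.8 CPM, overlapping the ATV:ISO group by 1 mouse (log2 change 0.88 ± 0.18, adjusted p = 0.000329). Elovl5, which elongates polyunsaturated fatty acids, rose by 0.78 ± 0.12 (adjusted p = 1.19e-05). Fads2 rose from the same 12 UMIs in WT mice given ATV:ISO, with 1.29, 0.997, 1.13 and 1.13 CPM (log2 change 3.14 ± 0.32, adjusted p = 6.03e-08), and Elovl6, which elongates saturated fatty acids, rose by 0.71 ± 0.27 (adjusted p = 0.0265). Scd2, at 34.2, 38.6, 47.2 and 42.5 CPM, overlapped the ATV:ISO mice and was not called (log2 change 0.22 ± 0.11, adjusted p = 0.0843). It was higher with ATV:4D9 in 4 of 4 pools, and the fit with the pool as a block called it (log2 change 0.22 ± 0.06, adjusted p = 0.00166), with 74.6% of all genes called.

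**Figure D2:**
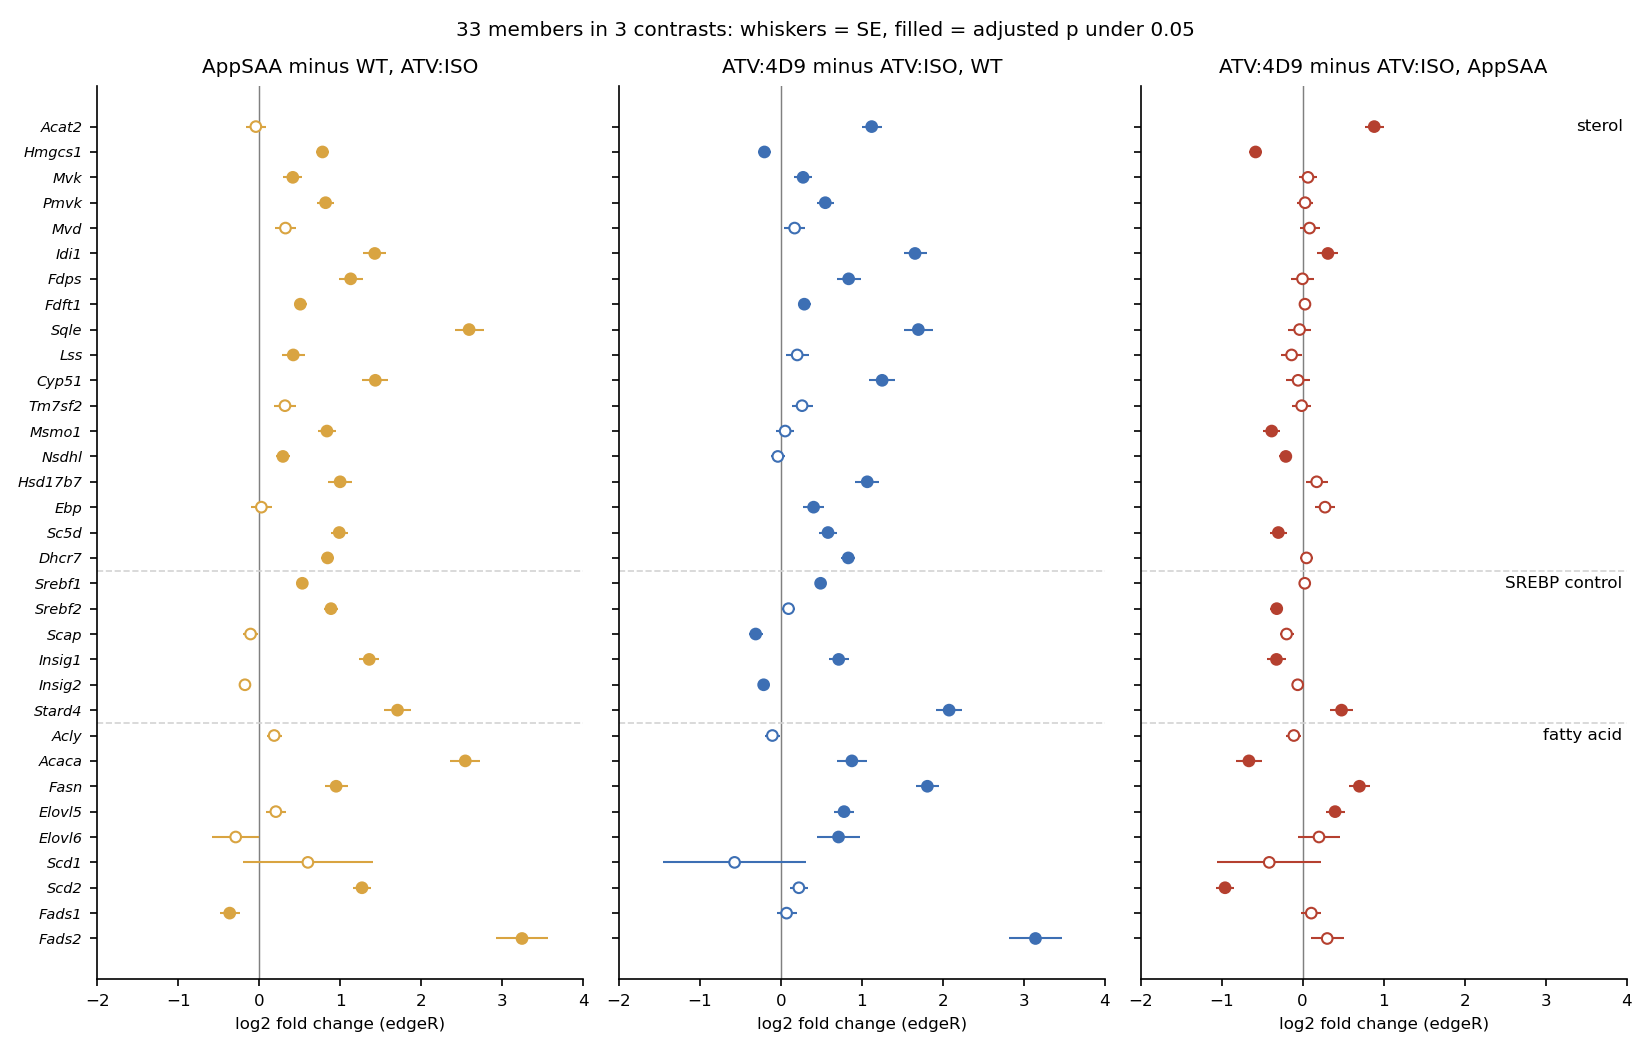
Log2 fold changes (x axis, edgeR) of the 33 genes (y axis, by arm) in 3 comparisons, with whiskers of 1 standard error and filled points for an adjusted p under 0.05. Most genes lie to the right of 0 for AppSAA against WT mice and for ATV:4D9 in WT mice, and on both sides of 0 for ATV:4D9 in AppSAA mice.

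In AppSAA mice, ATV:4D9 gave 5 members higher and 8 lower than ATV:ISO, while 55.1% of all genes were called, 27.9% as higher and 27.1% as lower. The AppSAA mice given ATV:ISO are also those of the comparison of genotypes. The median log2 fold change of the 33 genes was -0.00, against -0.03 over all genes. In the sterol arm 2 genes were higher and 4 lower, in the control arm 1 and 2, and in the fatty acid arm 2 and 2. The 3 genes for which all 4 mice given ATV:4D9 lay above the ATV:ISO mice were Acat2, Stard4 and Fasn (22.9% of all genes lay so). For Hmgcs1, Msmo1, Nsdhl, Sc5d, Srebf2, Insig1 and Scd2 all 4 lay below (24.9% of all genes). Without scaling factors 3 members were higher and 8 lower (24.9% of all genes higher and 30.4% lower), and Idi1 and Elovl5 were not called.

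Scd2 fell to 29.8, 38.4, 44.8 and 44.7 CPM with ATV:4D9, a log2 change of -0.96 ± 0.11 (adjusted p = 3.71e-07). All 4 values were below those of the AppSAA mice given ATV:ISO and near the range of the WT mice given ATV:ISO, 32.2 to 43.1 CPM. Hmgcs1 was at 23.7, 27.1, 27.1 and 24.2 CPM (log2 change -0.58 ± 0.08, adjusted p = 4.85e-06), and in each pool the mouse given ATV:4D9 was the lower. Acaca was at 13.6, 21.2, 24.4 and 21.3 CPM (log2 change -0.66 ± 0.16, adjusted p = 0.00194), overlapping the ATV:ISO mice. Srebf2, at 17.7, 21.6, 23.5 and 23.7 CPM, and Insig1, at 16.2, 16.2, 16.2 and 13.7 CPM, both fell (log2 change -0.32 ± 0.08 and -0.32 ± 0.11, adjusted p = 0.00232 and 0.0204). Msmo1 (-0.38), Sc5d (-0.30) and Nsdhl (-0.21) were lower too.

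Acat2 was at 5.83, 7.13, 6.55 and 5.92 CPM with ATV:ISO and 11.8, 12.2, 9.49 and 11.0 CPM with ATV:4D9, all 4 higher (log2 change 0.88 ± 0.12, adjusted p = 2.79e-06). Fasn was at 11.97, 10.7, 13.05 and 14.4 CPM (log2 change 0.70 ± 0.13, adjusted p = 0.000107) and Stard4 at 6.76, 7.20, 8.47 and 7.96 CPM (log2 change 0.48 ± 0.14, adjusted p = 0.00613). Elovl5 (0.40 ± 0.12) and Idi1 (0.31 ± 0.13, adjusted p = 0.0452) were also higher. Sqle, at 5.82, 5.97, 5.49 and 5.12 CPM, and Cyp51, at 29.2, 31.0, 24.4 and 24.0 CPM, overlapped the AppSAA mice given ATV:ISO and were not called (log2 change -0.04 ± 0.14 and -0.06 ± 0.15). Both lay above the range of the WT mice given ATV:ISO.

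These CPM are shares of a mouse's UMIs, and ATV:4D9 mice had more UMIs per cell. Per 1000 cells, Hmgcs1 gave 462 ± 63.8 UMIs in AppSAA mice with ATV:ISO and 436 ± 21.3 with ATV:4D9, whereas Scd2 gave 932 ± 225 and 674 ± 133. No test was run on this scale, and for 7 of the 8 members called lower in CPM the groups overlapped on it. The remaining member, Nsdhl, was apart in the higher direction, so none of the falls was without overlap per 1000 cells. Scd2 was lower per 1000 cells in 4 of 4 pools. Hmgcs1 and Acaca, at 386 ± 101 and 343 ± 76.4, were lower in 3 of 4. The means of the other 5 were higher with ATV:4D9, with 327 ± 55.9 and 369.9 ± 52.9 UMIs for Srebf2 (higher in 4 of 4 pools), 118 ± 6.86 and 145 ± 11.2 for Nsdhl (4 of 4), 564 ± 78.3 and 610.3 ± 24.0 for Msmo1 (3 of 4), 298 ± 39.2 and 342 ± 22.9 for Sc5d (3 of 4), and 236 ± 20.5 and 266 ± 22.0 for Insig1 (2 of 4). The 5 members called higher in CPM were higher per 1000 cells in every pool, without overlap. By means, 83.8% of the 13556 genes were higher per 1000 cells. When only cells of 1000 to 25000 UMIs were summed, the members called were 7 higher and 3 lower in place of 5 and 8, with 51.1% of all genes called (27.7% as higher and 23.3% as lower).

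The effect of ATV:4D9 differed between the genotypes for 17 of the 33 genes, and in all 17 it was lower in AppSAA than in WT mice (interaction of genotype and antibody, edgeR; 9.14% of all genes were called, 3.79% as higher and 5.35% as lower). With the pool as a block 21 members were called, 20 lower and 1, Insig2, higher, and 30.5% of all genes (16.9% as higher and 13.6% as lower). Without scaling factors 16 were called, all lower (9.88% of all genes), with Hmgcs1 and Srebf2 not called and Msmo1 called. The median interaction over the members was -0.43 on the log2 scale, against 0.04 over all genes. Of the 17 genes, 9 belonged to the sterol arm, 4 to the control arm and 4 to the fatty acid arm. The lowest values with a mean of at least 10 CPM were Acaca (-1.54 ± 0.25, adjusted p = 0.000427), Idi1 (-1.34 ± 0.19, adjusted p = 0.000142), Cyp51 (-1.31 ± 0.22, adjusted p = 0.000557) and Scd2 (-1.18 ± 0.15, adjusted p = 6.34e-05). Sqle (-1.73 ± 0.23), Stard4 (-1.60 ± 0.22), Fasn (-1.11 ± 0.19) and Insig1 (-1.04 ± 0.17) were called as well. Acat2, higher with the antibody in both genotypes, had an interaction of -0.24 ± 0.17 that was not called (adjusted p = 0.464). The interaction contains the genotype difference under ATV:ISO, since both antibody effects are taken from their own ATV:ISO group.

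**Figure D3:**
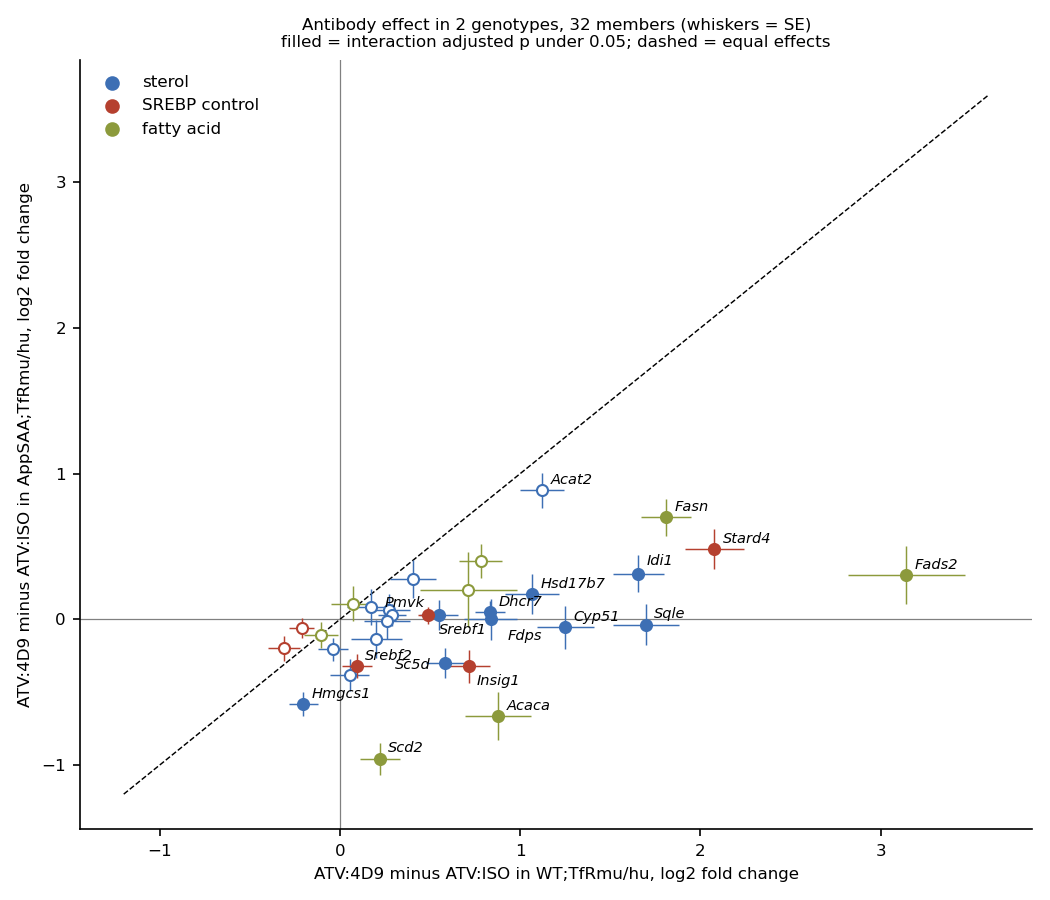
Log2 fold change of ATV:4D9 over ATV:ISO in WT mice (x axis) and in AppSAA mice (y axis) for 32 of the 33 genes, with Scd1 left out for its low count; the dashed line marks equal change and filled points have a called interaction. All 17 filled points lie below the line, with Scd2, Acaca and Hmgcs1 below 0 on the y axis and Fasn and Stard4 above it.

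The summed levels of the arms give the same values in another form. The 18 sterol genes together made up 292 ± 16.5 CPM in WT mice with ATV:ISO and 381 ± 26.6 with ATV:4D9, and 395 ± 26.9, 384 ± 19.0 and 375 ± 21.7 in AppSAA mice with ATV:ISO, 4D9 and ATV:4D9 (SD, n = 4). The WT mice given ATV:ISO were lowest, and the other 4 groups lay within their spread of each other. The 9 fatty acid genes made up 169 ± 28.8 and 187 ± 23.9 CPM in the WT groups and 231 ± 35.9, 226 ± 28.2 and 179 ± 25.8 in the AppSAA groups. The sum of the 6 control genes varied least, from 115 ± 6.39 to 132 ± 5.04 CPM. Single genes of this arm did change, such as Stard4 and Insig1, and with ATV:4D9 in WT mice some rose while others fell.

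With 4D9, which lacks the transport vehicle, none of the 33 genes was called against ATV:ISO in AppSAA mice by edgeR, and 0% of all genes were. At an unadjusted p under 0.05 edgeR gave 79 of 14058 genes (0.562%) and 0 members. Tests without any effect give a p under 0.05 for a share of about 0.05. The fit without the block thus looked conservative here, and 0 calls do not show that 4D9 had no effect. With the pool as a block 0 members were called over all cells, and within clusters 0 members and 0.00603% of all tests of a gene in a cluster. limma-voom called 0 genes and DESeq2 1, which was not a member. Values of 4D9 and ATV:ISO mice ran side by side, for example 68.3, 72.7, 83.9 and 85.5 CPM of Scd2, 37.1, 38.1, 38.0 and 38.5 CPM of Hmgcs1 and 25.4, 28.6, 39.2 and 34.8 CPM of Acaca with 4D9. The log2 differences were -0.03 ± 0.11, -0.07 ± 0.08 and -0.05 ± 0.16. Nsdhl was the member whose groups did not overlap, lower with 4D9 (log2 difference -0.14 ± 0.08; 0.334% of all genes lay lower without overlap).

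Against 4D9, ATV:4D9 in AppSAA mice gave 5 members higher and 7 lower, with 54.3% of all genes called (27.6% as higher and 26.7% as lower). Acat2 (0.88 ± 0.12), Fasn (0.72 ± 0.13), Stard4 (0.66), Elovl5 (0.43) and Idi1 (0.38) were higher. Scd2 (-0.92 ± 0.11), Acaca (-0.62 ± 0.16), Hmgcs1 (-0.51 ± 0.08), Msmo1 (-0.32), Insig1 (-0.28), Sc5d (-0.25) and Srebf2 (-0.23) were lower. This comparison uses the ATV:4D9 mice already set against ATV:ISO and so is not a separate observation of them.

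Between the genotypes under ATV:4D9, 6 members were higher in AppSAA mice and 1 was lower, with 11.8% of all genes called (7.84% as higher and 3.98% as lower). Acaca (1.01 ± 0.17), Sqle (0.86 ± 0.14), Srebf2 (0.47), Hmgcs1 (0.41), Msmo1 (0.40) and Fdft1 (0.25) were higher and Elovl6 (-0.80 ± 0.24) was lower. A fit with the pool as a block called 16 members, 11 of them higher and 5 lower, and 31.4% of all genes (17% as higher and 14.4% as lower). Without the WT mouse given ATV:4D9 of pool 3, and likewise without that of pool 4, 4 members were called. Without scaling factors 5 members were higher and 3 lower (5.63% of all genes higher and 15.7% lower), since Fdft1 was not called and Acat2 and Fads1 were called lower.

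The deposited annotation places each cell in 1 of 6 clusters, numbered 0 to 5 without names, and the members' levels are described by cluster because the groups fill them differently. These clusters were computed from expression, so differences between clusters are given without a test. In WT mice given ATV:ISO, cluster 0 held 60.4% ± 2.60 of cells and cluster 3 35.8% ± 2.56 (SD over 4 mice). Cluster 1 was large in AppSAA mice, with 38.3% ± 4.64 under ATV:ISO and 39.4% ± 2.73 under 4D9, and smaller under ATV:4D9, with 13.5% ± 3.05, while it held 1.41% ± 0.782 in WT mice given ATV:ISO. Clusters 2 and 4 appeared mainly with ATV:4D9, at 47.8% ± 3.48 and 40.0% ± 4.44 in WT and 35.4% ± 4.54 and 22.4% ± 3.33 in AppSAA mice. Cluster 5 was highest, 22.4% ± 4.26, in AppSAA mice given ATV:4D9.

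Levels by cluster are given within a group, because a mean over all mice would mix the groups. In AppSAA mice given ATV:ISO the sterol arm was at 266 ± 17.7 CPM in cluster 3 and 296 ± 15.8 in cluster 0, at 361 ± 48.5 in cluster 5 and 411 ± 25.2 in cluster 2, and at 479 ± 27.2 in cluster 1 and 569 ± 43.1 in cluster 4 (SD, n = 4). In AppSAA mice given ATV:4D9 it was at 299 ± 23.5, 320.5 ± 20.9, 381 ± 18.1, 359 ± 19.3, 350.5 ± 26.3 and 409 ± 27.9 CPM in the same order of clusters, where the mean of cluster 1 lay below those of clusters 2 and 5. The fatty acid arm in clusters 3, 1 and 4 was at 152 ± 23.7, 286 ± 44.1 and 278 ± 29.4 CPM with ATV:ISO and 156 ± 17.4, 224 ± 20.02 and 189 ± 27.7 CPM with ATV:4D9. Sums of cluster 4 came from 27 to 74 cells a mouse with ATV:ISO, and those of cluster 0 from 37 to 195 cells with ATV:4D9. The 16 cell cycle genes summed to 3628 ± 195 CPM in cluster 4 and 863 ± 106 in cluster 2 of the ATV:ISO mice, against 178 to 225 CPM in the other 4 clusters. In the ATV:4D9 mice they summed to 3309 ± 124 CPM in cluster 4, 1165 ± 41.1 in cluster 2 and 762 ± 48.7 in cluster 5, against 177 to 237 CPM in clusters 0, 1 and 3.

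Some genes differed between clusters by more than the sums did, while others, such as Acly at 70.1 ± 12.6 CPM in cluster 0 and 66.4 ± 8.03 in cluster 4 of the AppSAA mice given ATV:ISO, were level. In AppSAA mice given ATV:ISO, Sqle was at 0.504 ± 0.406 CPM in cluster 0 and 0.802 ± 0.414 in cluster 3, but at 6.13 ± 2.24 in cluster 2 and 16.8 ± 5.08 in cluster 4. Clusters 2 and 4 held only 2.34% and 0.949% of the cells of these mice, and cluster 1 held 38.3%. In cluster 1 the Sqle level with ATV:4D9 minus that with ATV:ISO was -5.17 to -3.41 CPM by pool. Under ATV:ISO Sqle was thus above its level in clusters 0 and 3 there as well. In these ATV:ISO mice Acaca was at 7.67 ± 1.96 CPM in cluster 0, 54.5 ± 9.06 in cluster 1 and 35.6 ± 8.54 in cluster 4, and with ATV:4D9 at 16.4 ± 9.18, 52.7 ± 8.98 and 14.3 ± 2.40. Scd2 had 28.9 ± 8.38 CPM in cluster 3 and 118 ± 18.6 in cluster 1 with ATV:ISO, and 24.4 ± 6.77 and 73.3 ± 8.50 with ATV:4D9. Hmgcs1 was at 50.7 ± 3.74 and 48.6 ± 8.67 CPM in clusters 1 and 4 of the ATV:ISO mice, with ranges that overlapped. In the ATV:4D9 mice it was at 30.6, 32.1, 34.1 and 31.0 CPM in cluster 1 and 18.8, 22.6, 19.7 and 20.8 CPM in cluster 4, with no overlap. Stard4 in cluster 4 was at 10.9 ± 5.39 CPM with ATV:ISO and 11.8 ± 1.27 with ATV:4D9.

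**Figure D4:**
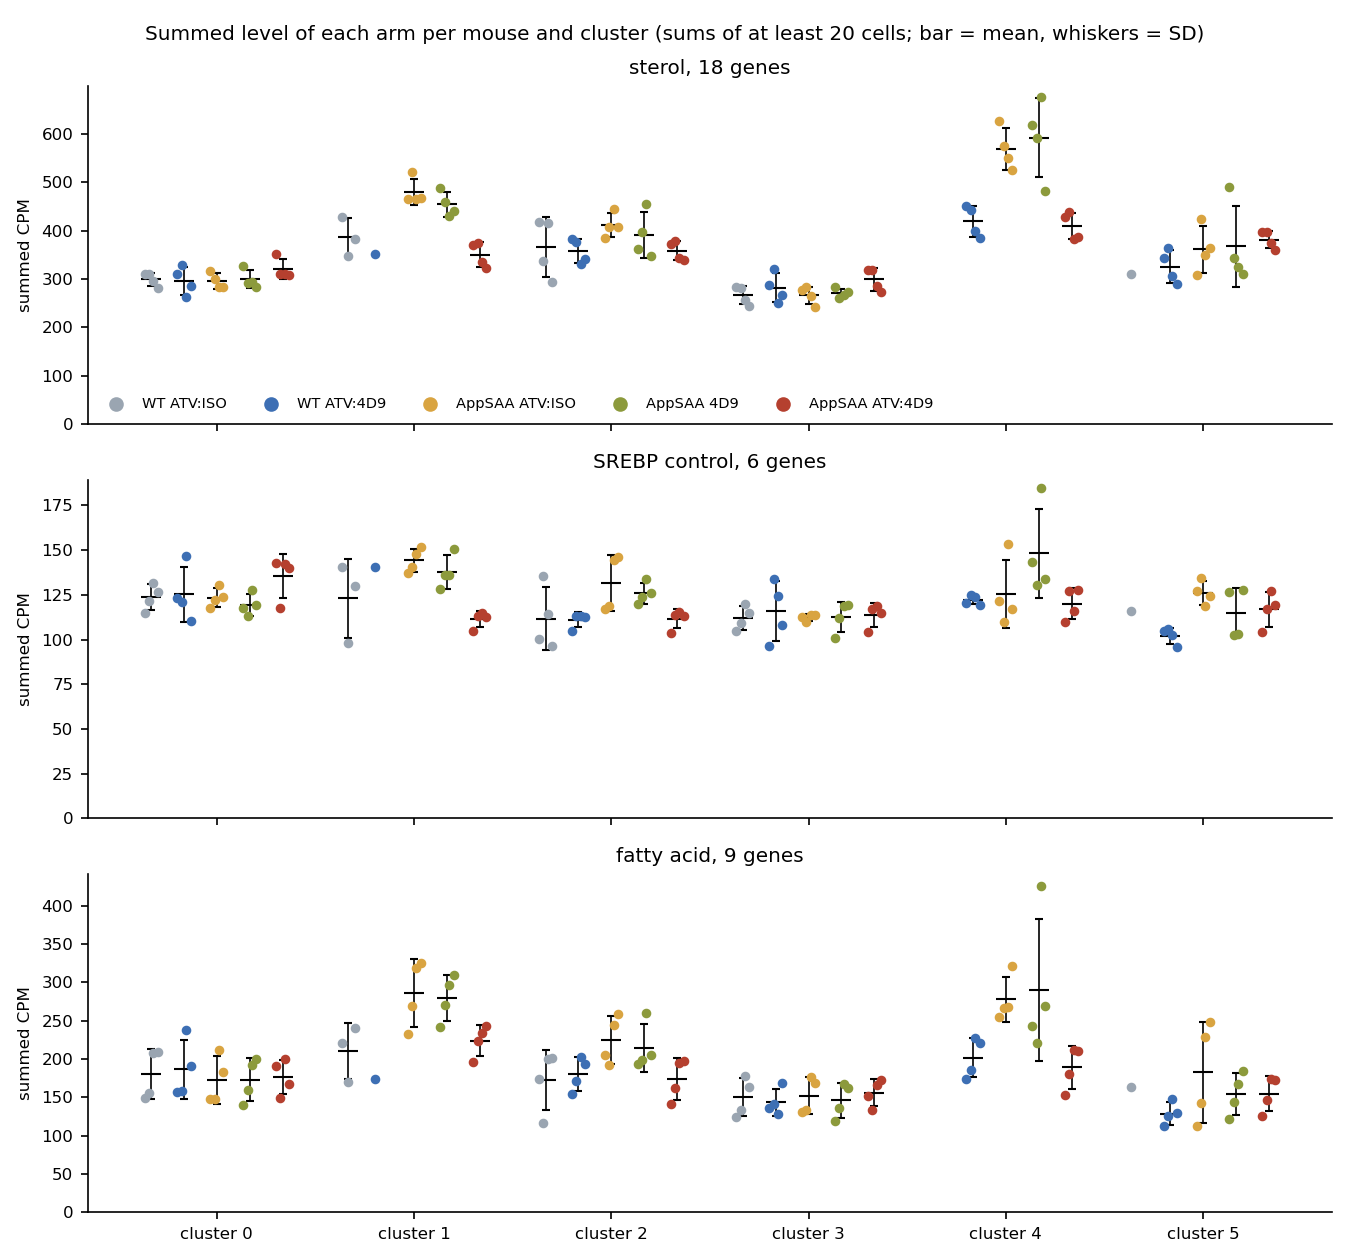
Summed level of each arm in CPM (y axis, linear, from 0) in clusters 0 to 5 (x axis), for each mouse with at least 20 cells in the cluster, colored by group; points are mice, bars are means and whiskers are SDs. The group means of the sterol arm ran from 266 to 320.5 CPM in clusters 0 and 3, and AppSAA mice given ATV:ISO or 4D9 lay above those given ATV:4D9 in clusters 1 and 4.

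Within cluster 0 the sterol arm was at 299 ± 13.5 CPM in WT mice given ATV:ISO, 297 ± 28.8 with ATV:4D9, 296 ± 15.8 in AppSAA mice with ATV:ISO, 299 ± 18.7 with 4D9 and 320.5 ± 20.9 with ATV:4D9 (SD, n = 4). The ranges over mice overlapped, but pool by pool the AppSAA mouse given ATV:4D9 was above that given ATV:ISO in 4 of 4 pools and above that given 4D9 in 4 of 4. No member was called in cluster 0 in any of the 6 contrasts by edgeR without the block, where 0 to 1.47% of all genes were called (0.667% for ATV:4D9 against ATV:ISO and 0.65% against 4D9 in AppSAA mice), and 1 to 8 of 30 members had an unadjusted p under 0.05 (0.642% to 13% of all genes, with 8 members beside 9.76% for ATV:4D9 against 4D9). With the pool as a block, Stard4 was called higher with ATV:4D9 than with ATV:ISO in AppSAA mice (log2 change 1.63 ± 0.47, adjusted p = 0.0317, 5.27% of all genes called), a fold that rests on 1, 7, 1 and 6 UMIs of Stard4 in the 4 mice given ATV:4D9, and Acaca higher in AppSAA than in WT mice under ATV:ISO (0.55 ± 0.15, adjusted p = 0.0224, 4.61%). limma-voom called Stard4 and Sqle higher with ATV:4D9 in AppSAA mice there (0.813% of all genes), with 1, 2, 0 and 4 UMIs of Sqle in the mice given ATV:4D9. In genotype comparisons under ATV:ISO no member was called in clusters 0, 2 or 3 without the block, where 0.274%, 0.281% and 0.189% of all genes were. In cluster 2, whose sums in WT mice given ATV:ISO held 23 to 42 cells, 9 of 28 members had an unadjusted p under 0.05 in edgeR, against 10.2% of all genes, and the median log2 change of the members was 0.48. The block called Scd2 higher in AppSAA mice in cluster 2 (adjusted p = 0.0134 by edgeR, 1.33% of all genes). In cluster 1 Srebf2 (0.74), Acaca (1.01) and Scd2 (0.80) were higher in AppSAA than in WT mice (1.21% of all genes called), but cluster 1 was counted in only 3 WT mice with ATV:ISO, on sums of 31, 62 and 27 cells, so the comparison could not be made with at least 50 cells per sum. Without scaling factors Scd2 and Pmvk were called in place of the 3. The 3 calls were lost without the WT mouse given ATV:ISO of pool 2 or of pool 4, and 1 was left without the AppSAA mouse given ATV:ISO of pool 2 or of pool 3. Of 8 fits without 1 mouse, the calls of Acaca and Srebf2 each ended in 6 and that of Scd2 in 2. The WT mouse given ATV:ISO of pool 3 held 18 cells of cluster 1 and was in none of these fits.

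In cluster 1 genes of all 3 arms fell with ATV:4D9. In AppSAA mice 12 of 31 members tested were lower with ATV:4D9 than with ATV:ISO and 0 were higher, while 1.51% of all genes were called in this cluster, 0.451% as lower. Hmgcs1 was at 45.4, 53.7, 50.8 and 52.9 CPM with ATV:ISO, 44.4, 48.8, 44.9 and 46.9 CPM with 4D9 and 30.6, 32.1, 34.1 and 31.0 CPM with ATV:4D9. All 4 mice given ATV:4D9 were below the other 8, and the log2 change from ATV:ISO was -0.62 ± 0.09 (adjusted p = 0.000328). Hsd17b7, which reduces the ketone left after demethylation, fell (log2 change -1.17 ± 0.17, adjusted p = 0.000478), from 4.91, 6.83, 7.34 and 6.05 CPM to 2.11, 2.84, 2.54 and 3.07 CPM. Scd2 was at 95.6, 112, 128 and 138 CPM with ATV:ISO and 60.9, 80.0, 77.4 and 75.1 CPM with ATV:4D9 (log2 change -0.64 ± 0.10, adjusted p = 0.000995). Sqle (-0.80), Idi1 (-0.79), Cyp51 (-0.77), Fdps (-0.75), Insig1 (-0.73), Sc5d (-0.54), Srebf1 (-0.45), Srebf2 (-0.43) and Msmo1 (-0.40) completed the 12. The same number was called by limma-voom and with sums of at least 50 cells, and 17 with the pool as a block (7.77% of all genes, 3.34% as lower). Fits without 1 mouse called 8 to 11. The call of Msmo1 ended in 7 of these 8 fits and that of Sqle in 5. Against 4D9, 8 members were lower and 0 higher (1.76% of all genes, 0.501% as lower). That count was 3 without the AppSAA mouse given ATV:4D9 of pool 4, and 5 without that of pool 3 or without the mouse given 4D9 of pool 2.

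Mean UMIs per cell in cluster 1 were 15467 with ATV:ISO, 15768 with 4D9 and 14088 with ATV:4D9. By pool they were 12414, 13501, 15512 and 14924 with ATV:4D9. With ATV:ISO they were 14579, 14651.5, 16221 and 16415, and with 4D9 13248, 15806, 15937 and 18080. The mouse given ATV:4D9 was thus the lowest of the 3 in every pool, and the part of this in the results was not tested. The sterol arm gave 479 ± 27.2 CPM with ATV:ISO, 454 ± 25.7 with 4D9 and 350.5 ± 26.3 with ATV:4D9 (SD, n = 4). Cluster 1 of the ATV:4D9 mice is a smaller share of their cells, and whether the same cells were counted in it in each group was not tested.

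**Figure D5:**
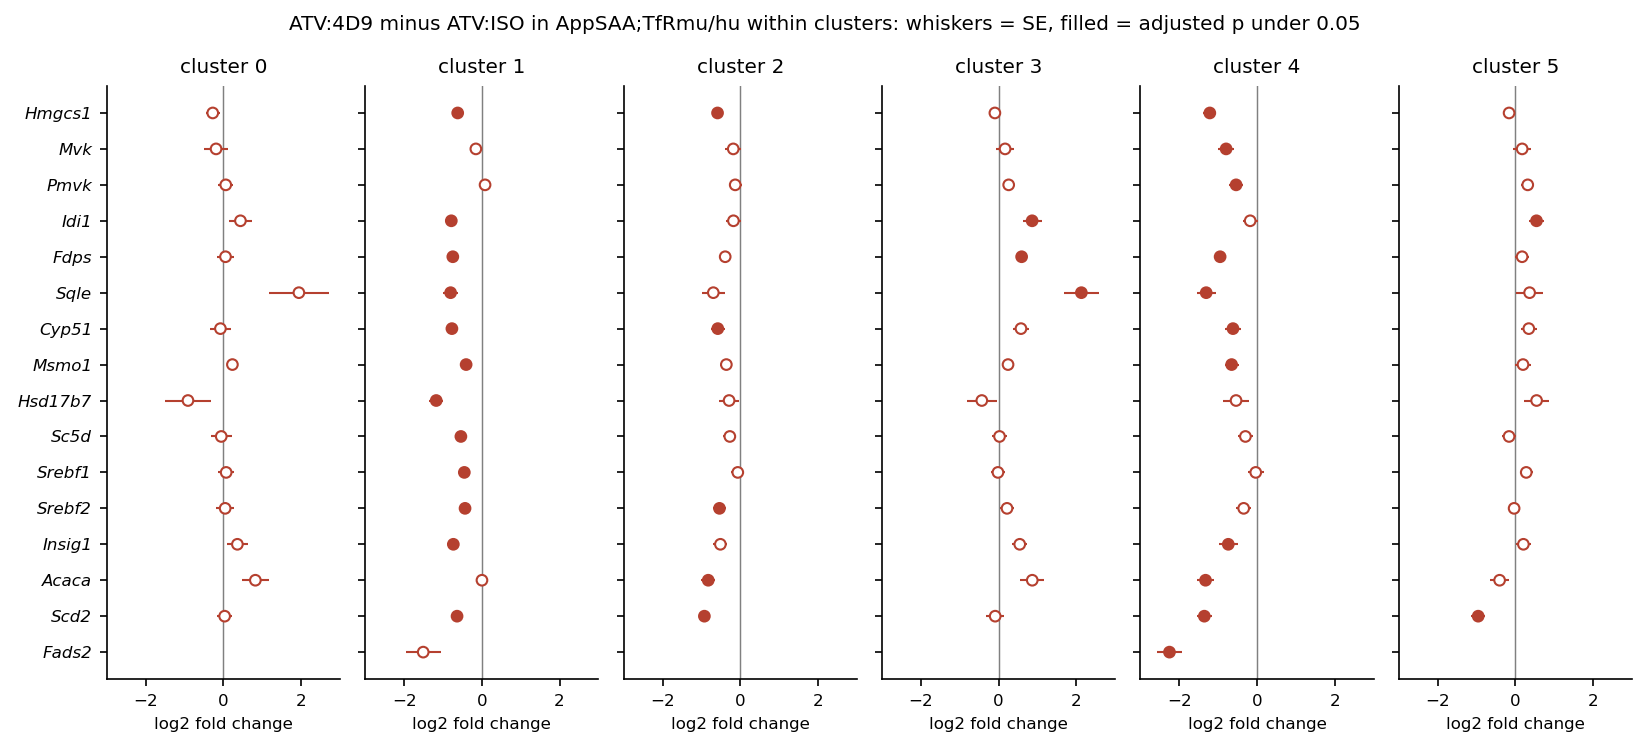
Log2 fold change of ATV:4D9 over ATV:ISO in AppSAA mice (x axis) for 16 members (y axis), with 1 panel for each deposited cluster, whiskers of 1 standard error and filled points for an adjusted p under 0.05. Filled points lie below 0 in clusters 1, 2 and 4 and above 0 in cluster 3, cluster 5 has 1 on each side of 0, and cluster 0 has none.

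In cluster 4, 11 of 31 members were lower with ATV:4D9 than with ATV:ISO and 0 higher, with 24.5% of all genes called, 11.5% as lower. Scd2 (-1.36 ± 0.20), Acaca (-1.33 ± 0.21), Sqle (-1.31 ± 0.24) and Hmgcs1 (-1.22 ± 0.17) were among them. The cluster 4 sums of AppSAA mice given ATV:ISO or 4D9 held only 27 to 74 and 26 to 54 cells, and limma-voom called 8 members lower (10.5% of all genes as lower). With at least 50 cells per sum, ATV:4D9 could not be compared with either of these groups in cluster 4. UMIs per cell were 21837 with ATV:ISO and 20859 with ATV:4D9. Against 4D9, 13 members were lower (22.1% of all genes, 10.5% as lower), and 6 without the AppSAA mouse given 4D9 of pool 3. The sterol arm of cluster 4 was at 419 ± 32.3 CPM in WT mice given ATV:4D9 and 409 ± 27.9 CPM in AppSAA mice given ATV:4D9, against 569 ± 43.1 with ATV:ISO and 592 ± 82.2 with 4D9 in AppSAA mice. In cluster 2, Scd2 (-0.92), Acaca (-0.82), Hmgcs1 (-0.58), Cyp51 (-0.58) and Srebf2 (-0.53) were lower with ATV:4D9 in AppSAA mice (5 of 28 tested, 13.2% of all genes called, 6.3% as lower), of which 3 were called without the mouse given ATV:ISO of pool 3 or without that given ATV:4D9 of pool 3. With the block 10 members were called there, 9 lower and 1 higher (24.8% of all genes). UMIs per cell in cluster 2 were 15057 ± 1707 with ATV:ISO and 17496 ± 1152 with ATV:4D9 in AppSAA mice. In WT mice ATV:4D9 gave no call of a member in cluster 2 (5.88% of all genes called), where the ATV:ISO sums held 23 to 42 cells, and none was called there between genotypes under ATV:4D9 (2.07%), where the block called 4 higher (7.38%).

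In cluster 3 the called members were higher with ATV:4D9. Sqle was at 0.432, 0.539, 1.35 and 0.888 CPM with ATV:ISO and 2.81, 2.42, 2.70 and 4.88 CPM with ATV:4D9 in AppSAA mice, a log2 change of 2.13 ± 0.45 (adjusted p = 0.00555). All 4 mice given ATV:4D9 were higher, but these levels rest on 4, 4, 20 and 13 UMIs of Sqle with ATV:ISO and on 2, 5, 2 and 15 UMIs in 68 to 268 cells with ATV:4D9. UMIs per cell in cluster 3 were 9665 with ATV:ISO and 10176 with ATV:4D9. Idi1 (0.86 ± 0.25, adjusted p = 0.045) and Fdps (0.59 ± 0.14, adjusted p = 0.0107) also rose, 3 of 30 members in all (4.33% of all genes called, 3.37% as higher). The call of Idi1 ended without any 1 of the 8 mice compared (edgeR adjusted p from 0.0511 to 0.188), and that of Sqle without the mouse given ATV:4D9 of pool 4 (edgeR adjusted p = 0.179), so that 1 to 2 of the 3 calls were left. Fdps was called in each of these fits. Idi1 was not called without scaling factors either (edgeR adjusted p = 0.0699). With the pool as a block Acaca (log2 change 0.84, adjusted p = 0.0274) and Tm7sf2 (1.09, adjusted p = 0.0308) were called higher there as well (12.6% of all genes). Against 4D9, Sqle and Fdps rose there (3.52% of all genes), with 0 calls left without the mouse given 4D9 of pool 3 and 1 left without 5 of the other mice, and in WT mice ATV:4D9 raised Fdps by 0.49 ± 0.13 in cluster 3 (6.17% of all genes), a call that ended when any of 4 of the 8 mice was left out and without scaling factors. In cluster 5 of AppSAA mice Idi1 was higher (0.54) and Scd2 lower (-0.96) with ATV:4D9 (29.7% of all genes called), and the call of Idi1 ended when any of 3 of the 8 mice was left out and without scaling factors. UMIs per cell in cluster 5 were 11941 ± 1193 with ATV:ISO and 16601 ± 897 with ATV:4D9, without overlap, and the part of this difference in the results was not tested. Between genotypes under ATV:4D9, 7 members were higher in AppSAA mice in cluster 5 (6.87% of all genes, 3.87% as higher), namely Hmgcs1, Idi1, Sqle, Msmo1, Srebf2, Stard4 and Acaca, of which Idi1 and Stard4 were not called without scaling factors. The cell cycle genes of this cluster summed to 1352 ± 118 CPM in these WT mice and 762 ± 48.7 in these AppSAA mice, without overlap. The part of this difference in the 7 calls was not tested. For 4D9 against ATV:ISO no member was called in any cluster by edgeR, and 0% of all genes were in each of the 6.

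Other genes of these pathways were counted from lists drawn up by pathway, also with earlier results of these data known. The shares of all genes to set beside these counts were 30.8% higher and 32.5% lower with ATV:4D9 in WT mice, 27.9% and 27.1% in AppSAA mice, and 14.4% and 13.7% by genotype under ATV:ISO. Of 9 tested further genes of sterol synthesis and SREBP processing, 2 rose and 4 fell with ATV:4D9 in WT mice, and 1 rose and 6 fell in AppSAA mice. Erg28, a scaffold of the demethylation enzymes, rose by 0.79 ± 0.12 in WT mice and 0.66 ± 0.12 in AppSAA mice. Ggps1, which makes geranylgeranyl diphosphate, fell by 0.66 and 0.36, and Mbtps1, the protease that first cleaves SREBPs, fell by 0.30 and 0.28. Of these 9 genes 3 were higher and 2 lower in AppSAA than in WT mice under ATV:ISO. Of 17 further genes of fatty acid synthesis and activation, 10 rose and 5 fell with ATV:4D9 in WT mice, 7 rose and 5 fell in AppSAA mice, and 5 were higher and 3 lower by genotype. Acss2, which makes acetyl-CoA from acetate, fell by 0.89 ± 0.19 in WT and 0.59 ± 0.18 in AppSAA mice with ATV:4D9. Of 12 genes of sterol efflux, storage and LXR control, 2 rose and 6 fell with ATV:4D9 in each genotype, and 5 were higher and 3 lower in AppSAA mice under ATV:ISO. Abca1, the cholesterol exporter and LXR target, fell by 0.68 ± 0.15 with ATV:4D9 in WT mice and was also lower in AppSAA than in WT mice given ATV:ISO (log2 change -0.70 ± 0.15). By genotype Abca1 thus opposed most called genes of its list. The list summed to 2099 ± 88.8 CPM in WT and 2586 ± 70.5 CPM in AppSAA mice given ATV:ISO (± SD).

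All 16 cell cycle genes rose with ATV:4D9 in both genotypes, with a median log2 change of 3.54 in WT and 2.74 in AppSAA mice, and 11 of 16 were higher in AppSAA than in WT mice under ATV:ISO. Their summed level was 222 ± 29.7 CPM in WT mice with ATV:ISO, 2071 ± 100.0 with ATV:4D9, 267 ± 21.4 in AppSAA mice with ATV:ISO, 277 ± 25.2 with 4D9 and 1514 ± 134 with ATV:4D9. With cells of cluster 4 left out, an alternative added once values were known, the members called were 21 higher and 1 lower for ATV:4D9 in WT mice (59% of all genes called), 22 higher and 0 lower for genotype under ATV:ISO (24.4%), and 3 higher and 5 lower for ATV:4D9 in AppSAA mice (49.3%). This did not remove all cell cycle expression. In WT mice given ATV:4D9 the 16 genes still summed to 1263 ± 38.1 CPM in cluster 2 and 1352 ± 118 CPM in cluster 5. Of 15 immediate early genes, which dissociation can raise, 2 rose and 5 fell with ATV:4D9 in WT mice, 1 rose and 4 fell in AppSAA mice, and 4 were higher by genotype.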

How the data were processed

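Microglia of 20 mice (4 per group) were profiled by single-cell RNA-seq in 4 pools. The sources used here name either CD11b+ or CD45+/CD11b+ cells for the sort and either cortex or cortex with hippocampus for the tissue. The authors used Cell Ranger 6.1.1 and mm10 for alignment, CellPlex tags to give each cell its mouse, and Seurat 4 for clustering. The deposited matrix holds UMI counts per gene and cell without normalization, and the deposited cell annotation gives mouse, group, pool and cluster at resolution 0.2. Which cells the authors removed is not given in the sources used here, and no further cell or doublet filter was applied.

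UMI counts were summed per mouse and, where at least 20 cells were present, per mouse and cluster. The deposited counts gave a depth of 17150296 to 102446549 UMIs per mouse. edgeR 4.0.16 in R 4.3.3 was used for a quasi-likelihood test after filterByExpr and TMM scaling, with Benjamini-Hochberg adjustment across the 14058 genes tested and calls at 0.05, with all 5 groups in 1 fit and 1 further fit per cluster in which both groups had at least 3 mice. p-values measure the spread between mice. Each mouse's deviation from its group mean was correlated with that of its pool mates (40 of 40 pairs over 0.1, from 0.143 to 0.607). The pool therefore pairs mice and was tried as a block. Other alternatives were RLE factors, no filter on low counts, DESeq2 1.42.0, limma-voom 3.58.1, leaving out each mouse, a UMI range per cell, at least 50 cells per sum, and clusters 0 and 3 merged. The cells outside cluster 4, limma-voom within clusters and fits without scaling factors were added after the data were seen. The scripts were tested on simulated counts. All 33 members were tested over all cells. Named by rule were, per arm, the members of largest change with a mean of at least 10 CPM (up to 4 sterol, 2 control and 3 fatty acid genes) and called members that opposed most of their arm. Sqle, Stard4, Fasn and others below that level, and genes outside the 33, were named after their values were seen. The members, their arms and the other gene lists were chosen with earlier results of these data known. Positions and promoters come from GENCODE vM21 and RefSeq (GRCm38.p6).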

Additional observations from a re-analysis of the deposited data

Results flagged for a closer look

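Among 165 sets of 4 mice (33 genes in 5 groups), 5 held a mouse far from the other 3 by Dixon's criterion, where chance gives about 1 in 20. Hmgcs1 was at 23.2 CPM in the WT mouse given ATV:4D9 of pool 2, against 20.4 to 20.7 in the others. In the AppSAA mouse given ATV:4D9 of pool 4, Lss was at 3.89 CPM against 2.93 to 3.09 and Insig1 at 13.7 CPM against 16.2 in each of the others. Sc5d was at 23.7 CPM in the AppSAA mouse given 4D9 of pool 2, against 25.2 to 25.5. Scd1 was at 0.436 CPM in the AppSAA mouse given ATV:4D9 of pool 3, against 0.0341 to 0.0683 in the others.

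The effect of ATV:4D9 differed between genotypes by the interaction test (edgeR, adjusted p under 0.05) for 17 members. On the log2 scale, AppSAA minus WT, the values were -2.84 for Fads2 (which held 12 UMIs in all 4 WT mice given ATV:ISO), -1.73 for Sqle, -1.60 for Stard4, -1.54 for Acaca, -1.34 for Idi1, -1.31 for Cyp51, -1.18 for Scd2, -1.11 for Fasn and -1.04 for Insig1. They were -0.89 for Hsd17b7, -0.88 for Sc5d, -0.84 for Fdps, -0.78 for Dhcr7, -0.52 for Pmvk, -0.46 for Srebf1, -0.41 for Srebf2 and -0.38 for Hmgcs1.

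In AppSAA mice ATV:4D9 moved 3 members in opposite directions in clusters 1 and 3 in every pool and with a call in both. The log2 changes in clusters 1 and 3 were -0.79 and 0.86 for Idi1, -0.75 and 0.59 for Fdps, and -0.80 and 2.13 for Sqle. In cluster 3 the AppSAA mice given ATV:4D9 held 2, 5, 2 and 15 UMIs of Sqle. The call of Idi1 there ended without any 1 of the 8 mice compared, and without scaling factors, and that of Sqle without 1 of them, the AppSAA mouse given ATV:4D9 of pool 4. In cluster 1 the call of Sqle ended in 5 of the 8 fits without 1 mouse (edgeR adjusted p up to 0.142). Those of Idi1 and Fdps in cluster 1 held in each of these fits. The difference between the clusters was not tested.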

How the results depend on the processing

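Over all cells, members called were 95 over the 7 comparisons, and 776 of 855 repeats of these calls under the alternatives kept the call, 79 lost it and 0 turned direction. With the pool as a block, which follows the pairing of mice by pool, AppSAA minus WT under ATV:4D9 had 16 members called in place of 7, and 31.4% of all genes in place of 11.8%. Within clusters the block gave 3 in place of 1 for ATV:4D9 in WT mice (12.6% in place of 4.42% of all tests of a gene in a cluster), 6 in place of 3 for genotype under ATV:ISO (2.62% in place of 0.508%) and 19 in place of 7 for genotype under ATV:4D9 (7% in place of 2.27%). It ended no member call made over all cells or within clusters. Outside cluster 4, 8 members were called in place of 13 for ATV:4D9 in AppSAA mice (49.3% of all genes in place of 55.1%). With at least 50 cells per sum, within-cluster calls were 0 in place of 3 for genotype under ATV:ISO and 14 in place of 28 for ATV:4D9 against 4D9, because 2 of 4 and 3 of 6 clusters could then no longer be compared. In the clusters still compared, 0 and 14 had been called with all sums. For ATV:4D9 against ATV:ISO in AppSAA mice 24 were called in place of 33 (11.1% of all tests in place of 11.7%). There 4 of 6 clusters were kept, in which 22 had been called with all sums. Without scaling factors 0 members in place of 1 were called within clusters for ATV:4D9 in WT mice (5.29% of all tests in place of 4.42%). Cells of 1000 to 25000 UMIs gave 7 higher and 3 lower for ATV:4D9 against ATV:ISO in AppSAA mice (5 and 8 with all cells; 51.1% of all genes) and 9 higher and 2 lower against 4D9 (5 and 7 with all cells; 49.9% of all genes). The fall of Hmgcs1 with ATV:4D9 in WT mice was not called under RLE factors, without a filter, by DESeq2, in this UMI range or outside cluster 4. The cause of the other moves was not tested.

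Leaving out 1 mouse at a time gave 20 to 23 members called for ATV:4D9 in WT mice, 21 to 23 for genotype under ATV:ISO, 11 to 13 for ATV:4D9 and 0 to 0 for 4D9 in AppSAA mice, 9 to 12 for ATV:4D9 against 4D9, 4 to 9 for genotype under ATV:4D9 and 14 to 17 for the interaction. Within clusters the ranges were 0 to 2, 0 to 3, 25 to 31 (33 with all mice), 0 to 0, 16 to 26 (28 with all mice) and 5 to 8 in the same order without the interaction. The 16 came without the AppSAA mouse given 4D9 of pool 3 and 18 without that of pool 2. The shares of all genes called in fits without 1 mouse, here and above, are not given. These ranges therefore describe only how steady the member counts were. Genes of few UMIs, such as Scd1 and Elovl6, limit what could be seen.

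Of the calls over all cells, 21 ended without 1 mouse, given here by the mouse whose removal gave the highest adjusted p (edgeR), with the log2 change and that p. For ATV:4D9 in WT mice these were Hmgcs1 without WT ATV:ISO of pool 2 (-0.12, adjusted p = 0.202), Mvk without WT ATV:ISO of pool 4 (0.21, adjusted p = 0.152), Ebp without WT ATV:4D9 of pool 1 (0.31, adjusted p = 0.0502) and Elovl6 without WT ATV:ISO of pool 2 (0.63, adjusted p = 0.0752). For genotype under ATV:ISO they were Lss without AppSAA ATV:ISO of pool 2 (0.37, adjusted p = 0.0845) and Fads1 without WT ATV:ISO of pool 4 (-0.26, adjusted p = 0.150). For ATV:4D9 against ATV:ISO in AppSAA mice they were Idi1 without AppSAA ATV:4D9 of pool 1 (0.22, adjusted p = 0.182), Nsdhl without AppSAA ATV:ISO of pool 1 (-0.18, adjusted p = 0.0950), Sc5d without AppSAA ATV:ISO of pool 2 (-0.19, adjusted p = 0.101) and Insig1 without AppSAA ATV:4D9 of pool 4 (-0.23, adjusted p = 0.0939). Against 4D9 they were Idi1 without AppSAA ATV:4D9 of pool 1 (0.28, adjusted p = 0.0821), Msmo1 without AppSAA ATV:4D9 of pool 4 (-0.24, adjusted p = 0.0809), Sc5d without AppSAA ATV:4D9 of pool 4 (-0.17, adjusted p = 0.179), Srebf2 without AppSAA 4D9 of pool 4 (-0.18, adjusted p = 0.0893) and Insig1 without AppSAA ATV:4D9 of pool 4 (-0.18, adjusted p = 0.193). For genotype under ATV:4D9 they were Fdft1 without WT ATV:4D9 of pool 3 (0.21, adjusted p = 0.114), Msmo1 without WT ATV:4D9 of pool 3 (0.35, adjusted p = 0.0674) and Elovl6 without AppSAA ATV:4D9 of pool 2 (-0.67, adjusted p = 0.104). For the interaction they were Hmgcs1 without AppSAA ATV:ISO of pool 2 (-0.31, adjusted p = 0.104), Pmvk without WT ATV:ISO of pool 4 (-0.45, adjusted p = 0.0728) and Srebf2 without WT ATV:4D9 of pool 4 (-0.36, adjusted p = 0.0703).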
